A study of Mus musculus with 11 samples.

Results

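The genes described here encode secreted lipoprotein components, lipid transporters, matricellular proteins and lysosomal cathepsins that glial cells of the brain produce. They were chosen by name, as the 10 rows Apoe, Clu, Apod, Abca1, Abcg1, Lcat, Sparc, Sparcl1, Ctsb and Ctsd of the 22609 gene rows in the deposited count table. The choice was made with earlier results of these data known, so shares of all genes given below are no independent test of the set. All 10 passed the filter of at least 10 reads over all libraries and belonged to the 17557 genes tested. Their levels were measured by bulk RNA sequencing of polyadenylated RNA in 11 libraries, of which 3 came from Control mice and 3, 2 and 3 from the NFKO, AnkGKO and DKO mutants.

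NFKO mice were Pcp2-Cre;NfascFx/Fx, AnkGKO mice Pcp2-Cre;AnkGFx/Fx, and DKO mice carried Pcp2-Cre with both floxed genes. Nfasc encodes the cell adhesion molecule Neurofascin and Ank3 encodes the scaffold Ankyrin G (AnkG), which together organize the axon initial segment, the place where neurons start action potentials. The Controls were floxed mice without Cre according to the series description, whereas the results text of the study writes their genotype with Pcp2-Cre. Cre from the Pcp2 promoter acts mainly in Purkinje cells, so by design deletion was directed to 1 neuron type in a sample that holds many cell types. The labels give untreated mice of mixed sex, with an age of postnatal day 30 in 1 place and postnatal day 32 in another. The sample titles call the libraries of a genotype biological replicates, and the methods of the study count mice.

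Apolipoprotein E, clusterin and apolipoprotein D carry lipids outside cells. In the brain, astrocytes secrete most Apoe and Clu, and oligodendrocytes and other glia secrete Apod. The transporters Abca1 and Abcg1 pass cholesterol and phospholipid from the cell to these particles, and lecithin-cholesterol acyltransferase (Lcat) esterifies the cholesterol on them. Sparc and Sparcl1 (hevin) are matricellular proteins, which sit in the extracellular matrix and modulate cell contacts and synapses rather than build the matrix. The proteases cathepsin B and cathepsin D (Ctsb, Ctsd) digest proteins in lysosomes.

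Before the results, the libraries were compared with their labels. Reads counted on genes ran from 38890851 to 55822361 per library, at which 3 reads equal 0.0546 to 0.0780 CPM (read counts scaled to the TMM-normalized library size), a floor for counting error only. Ank3 was at 353 to 375 CPM in the 3 Control libraries, 385 to 407 in NFKO, 156 and 200 in AnkGKO and 160 to 185 in DKO. Nfasc was at 661 to 718 CPM in Control, 622 to 701 in NFKO, 717 and 953 in AnkGKO and 559 to 606 in DKO, so whole-gene counts separated the Ank3 genotypes and did not separate NFKO from Control. Xist, used below as a covariate for the unlabelled sex, was at 464, 598 and 0.43 CPM in Control replicates 1 to 3. It was at 0.34 to 1.39 CPM in NFKO, 0.41 and 0.60 CPM in AnkGKO, and 28.4, 459 and 469 CPM in DKO replicates 1 to 3. The Xist level was thus uneven over the genotypes, and comparisons of DKO with either single knockout carry that difference. The samples were labelled as cerebellar hemisphere. The summed level of 8 granule cell markers was 934 CPM in Control replicate 1 and 807 CPM in NFKO replicate 1, against 252 to 323 CPM in the other 9 libraries. The Purkinje cell marker Pcp2 was at 26.3 and 28.3 CPM in the same 2 libraries and at 2.14 CPM or less elsewhere. The 12 spinal Hox genes summed to 395 to 615 CPM per library, and each had at least 3 reads in every library except Hoxc9, with 2 reads in Control replicate 2. Gabra6, which defines granule cells, was at 84.2 and 59.0 CPM in those libraries and at 4.41 CPM or less elsewhere. The tissue label was thus not matched by the granule and Purkinje cell markers in the other 9 libraries. The spinal Hox genes did not set Control replicate 1 (532 CPM) and NFKO replicate 1 (582 CPM) apart from these 9, so all 11 libraries held spinal markers. In AnkGKO and DKO, with Ank3 at 156 to 200 CPM, Pcp2 was at 0.10 to 0.37 CPM. Whether the loss of Ank3 was limited to Purkinje cells was not tested. In bulk tissue, fewer cells of a type and less RNA per cell cannot be told apart.

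Of the 10 genes, 7 were among the more abundant transcripts of the tissue. Per kilobase of annotated exon, the mean Control level was 536 CPM for Sparcl1, rank 9 of the 16891 genes with a length. Sparc followed at 380 CPM per kilobase (rank 19) and Apoe at 371 (rank 22). Apod was at 248, Ctsd at 193, Clu at 130 and Ctsb at 115 CPM per kilobase. Lcat at 19.2 (rank 1778), Abcg1 at 11.9 (rank 3003) and Abca1 at 4.24 CPM per kilobase (rank 6856) were below these 7. On this scale Sparc and Apoe lay closer to each other than the SD of their Control libraries.

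**Figure D1:**
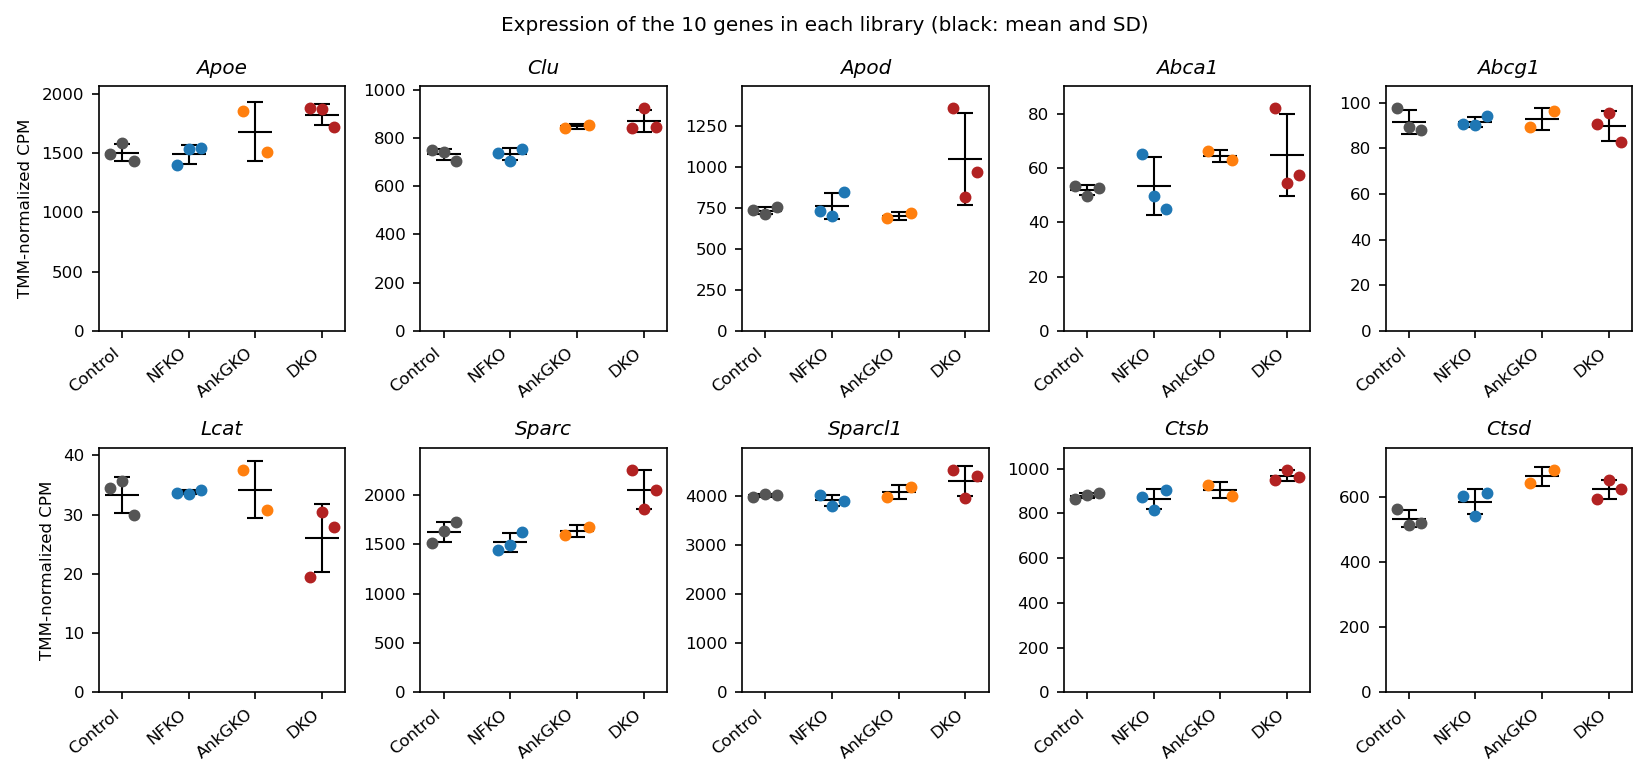
Expression of the 10 genes, 1 panel per gene, in TMM-normalized CPM on a linear axis from 0, with 1 point per library and a black bar and whisker for the mean and SD of each genotype. The 3 DKO libraries lie above the 3 Control libraries for Apoe, Clu, Apod, Abca1, Sparc, Ctsb and Ctsd, while the NFKO libraries overlap Control for all 10 genes.

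To ask whether targeting of both genes was accompanied by a change in these glial genes, DKO was compared with Control. In DKO, Apod, Sparc, Abca1, Apoe, Clu, Ctsd and Ctsb were higher than Control in every library, by 0.51, 0.34, 0.32, 0.28, 0.25, 0.23 and 0.14 on the log2 scale. The acyltransferase Lcat was at -0.36, and Sparcl1 at 0.10 and Abcg1 at -0.03 lay near 0. No fold change passed the test. In the quasi-likelihood test of edgeR, with p-values adjusted over all genes by the Benjamini-Hochberg method, 0 of 10 genes reached an adjusted p under 0.05 together with a log2 fold change of 0.6 or more in either direction (a call), and the lowest adjusted p of the 10 was 0.467 for Clu. Of all genes, 0.0228 percent were called in this comparison, which is 4 genes.

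The count of 7 of 10 genes with every DKO library above every Control library stood beside 7.65 percent of all genes tested. The study had named Apoe, Clu and Sparc as higher in DKO from these data, so these shares are no independent test of the set. At an unadjusted p under 0.05 there were also 7 of 10 genes, 6 higher and Lcat lower, beside 7.77 percent of all genes. The median log2 fold change of the 10 genes was 0.24, against -0.00062 over all genes tested. Without Control replicate 1 and NFKO replicate 1, the libraries rich in granule cell markers, the count of genes higher in every library was again 7, and 5 had an unadjusted p under 0.05. Without DKO replicate 1 these counts were 7 and 6. DESeq2 with a local dispersion fit, the tool of the study's methods, put 4 of 10 genes under an adjusted p of 0.05, all higher in DKO, beside 0.801 percent of all genes. They were Clu (adjusted p = 0.000878), Sparc (0.0135), Ctsd (0.0479) and Apod (0.0496), and none of the 4 reached the fold-change threshold.

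**Figure D2:**
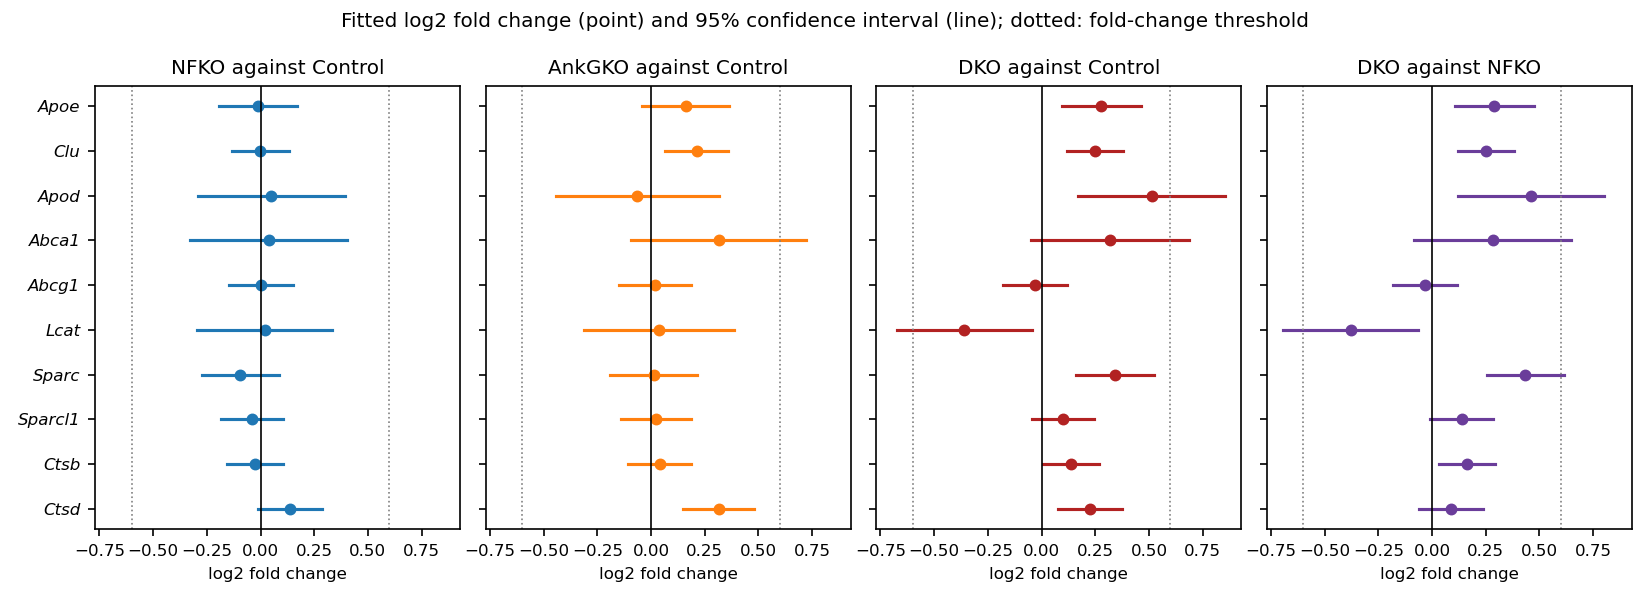
Fitted log2 fold change (points) and 95% confidence interval (lines) of the 10 genes in 4 comparisons, with dotted lines at the fold-change threshold of 0.6 in either direction. The DKO intervals of Apoe, Clu, Apod, Sparc, Ctsb and Ctsd against Control lie above 0, and all NFKO intervals include 0.

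Apoe, the main lipoprotein component of the brain, lies on chromosome 7 of GRCm39 from 19430034 to 19434947 on the minus strand. Its Control libraries held 1491, 1582 and 1437 CPM and its NFKO libraries 1399, 1534 and 1542 CPM. The AnkGKO libraries were at 1856 and 1507 CPM and the DKO libraries at 1879, 1870 and 1721 CPM. The 3 DKO libraries were all above Control and NFKO, and the 2 AnkGKO libraries fell apart, replicate 1 at the DKO level and replicate 2 among the Controls. The mean was 1503 ± 73.0 CPM in Control (SD, n = 3) and 1823 ± 88.8 CPM in DKO (SD, n = 3), a log2 fold change of 0.28 with a standard error of 0.084 (edgeR adjusted p = 0.568). In AnkGKO the fold change of Apoe was 0.16 with both libraries, 0.0035 without AnkGKO replicate 1 and 0.31 without AnkGKO replicate 2, so 1 library decided that value.

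Clu encodes clusterin, an extracellular chaperone and apolipoprotein, on chromosome 14 from 66190200 to 66218999. Its levels were 751, 742 and 707 CPM in Control, 739, 706 and 754 CPM in NFKO, 842 and 857 CPM in AnkGKO, and 843, 924 and 847 CPM in DKO. Both genotypes with deleted Ank3 were above both genotypes with intact Ank3 in every library. The NFKO and Control means, 733 ± 24.2 and 733 ± 23.3 CPM (SD, n = 3 each), differed by less than either SD. Against Control the log2 fold change of Clu was 0.25 in DKO (95% interval 0.12 to 0.38) and 0.21 in AnkGKO (0.067 to 0.36), with adjusted p = 0.467 and 0.536 by edgeR.

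Apod, a lipid-binding lipocalin, lies on chromosome 16 from 31115010 to 31135355. Control libraries held 734, 708 and 755 CPM, NFKO libraries 729, 699 and 848 CPM, and AnkGKO libraries 684 and 717 CPM. The DKO libraries held 1355, 814 and 966 CPM. DKO replicate 1 was far above the other 10 libraries, and DKO replicate 2 was below NFKO replicate 3. The log2 fold change against Control was 0.51 (95% interval 0.17 to 0.85, adjusted p = 0.570 by edgeR) and 0.28 without DKO replicate 1.

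Abca1, which loads cholesterol onto apolipoproteins, is a gene of chromosome 4, from 53030787 to 53159900. Its Control libraries held 53.5, 49.8 and 52.6 CPM and its NFKO libraries 65.5, 49.8 and 44.8 CPM. AnkGKO libraries were at 66.2 and 63.1 CPM, and DKO libraries at 82.2, 54.7 and 57.7 CPM. The 2 AnkGKO and 3 DKO libraries were above Control, but NFKO spanned from below Control to the AnkGKO level. The DKO fold change of 0.32 on the log2 scale (95% interval -0.049 to 0.69) was 0.11 without DKO replicate 1. Abcg1, the partner transporter on chromosome 17 from 31276649 to 31336969, ran from 82.6 to 97.5 CPM over all 11 libraries, and its genotype means were 91.6, 91.6, 92.9 and 89.6 CPM in Control, NFKO, AnkGKO and DKO. The 95% interval of its DKO fold change was -0.18 to 0.12.

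Lcat lies on chromosome 8 from 106665839 to 106670046 and was the member with the lowest level in CPM. The Control libraries held 34.4, 35.6 and 29.9 CPM and the NFKO libraries 33.7, 33.5 and 34.1 CPM. AnkGKO libraries were at 37.6 and 30.8 CPM, and the DKO libraries at 19.5, 30.5 and 28 CPM. DKO was below NFKO and AnkGKO in every library and overlapped Control. DKO replicate 1 was the lowest of the 11, and without it the DKO fold change of -0.36 against Control became -0.19.

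Sparc, on chromosome 11 from 55285317 to 55314067, was measured at 1516, 1628 and 1719 CPM in the Control libraries and at 1444, 1486 and 1626 CPM in those of NFKO. The AnkGKO libraries held 1592 and 1678 CPM and the DKO libraries 2253, 1859 and 2046 CPM. All 3 DKO libraries were above all 8 other libraries, and the other 3 genotypes overlapped. Mean levels were 1621 ± 102 CPM in Control, 1519 ± 95.4 in NFKO and 2053 ± 197 in DKO (SD, n = 3 each), and 1635 ± 61.0 CPM in AnkGKO (SD, n = 2). Its relative Sparcl1, on chromosome 5 from 104226288 to 104262065, was measured at 3982, 4035 and 4025 CPM in Control libraries and at 4531, 3961 and 4405 CPM in DKO libraries. DKO replicate 2 of Sparcl1 was below Control, and the fold change of 0.10 had a 95% interval of -0.047 to 0.24. NFKO and AnkGKO libraries of Sparcl1 held 3799 to 4179 CPM.

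Ctsd, the aspartic protease of the lysosome, maps to chromosome 7 from 141929646 to 141941775. The Control libraries held 565, 516 and 522 CPM, followed by 603, 544 and 615 CPM in NFKO, 644 and 685 CPM in AnkGKO, and 596, 654 and 625 CPM in DKO. AnkGKO and DKO were above Control in every library, and NFKO lay between, overlapping both Control and DKO. Ctsb, a cysteine protease on chromosome 14 from 63358384 to 63383372, had 865, 884 and 889 CPM in Control libraries and 947, 995 and 962 CPM in DKO libraries, with 814 to 905 CPM in NFKO and 928 and 879 CPM in AnkGKO. The 3 DKO libraries of Ctsb were the 3 highest of the 11. Ctsb shares 1184 exonic bases with Fdft1 on the opposite strand. The study made strand-specific libraries and took gene counts from STAR, but the strand setting of the counting is not stated. A part of the Ctsb count is therefore uncertain. Ctsd likewise shares 808 exonic bases with the gene model Gm49369 on the same strand. On the opposite strand Apod shares 782 exonic bases with Gm41442, Sparcl1 578 with Gm26703 and Apoe 521 with Gm71725, and their counts carry the same uncertainty.

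**Figure D3:**
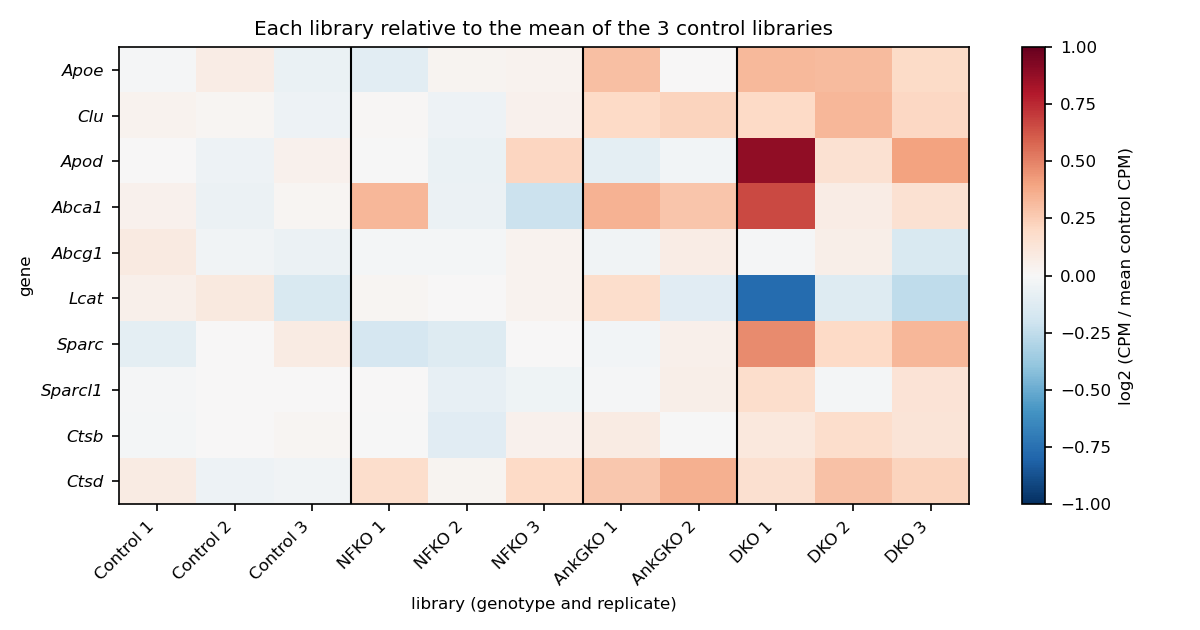
Log2 ratio of each library's CPM to the mean of the 3 Control libraries, with genes as rows and libraries as columns. Red is above and blue below the Control mean, and the colour scale ends at 1 in either direction. DKO replicate 1 shows the highest Apod, Abca1 and Sparc and the lowest Lcat of all 11 libraries, whereas Clu and Ctsd are above the Control mean in all 5 libraries with deleted Ank3.

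Promoter sequence was available for 6 of the 10 genes, Apoe, Apod, Abca1, Lcat, Sparc and Ctsd, in a RefSeq table on GRCm38.p6 that covers 250 bases before to 50 bases after each start. Clu, Abcg1, Sparcl1 and Ctsb were not matched. The motifs searched on both strands were a direct repeat of AGGTCA with 4 free bases between, known to bind the liver X receptor, its half-site AGGTCA, the sterol regulatory element TCACNCCAC, the lysosomal gene element GTCACGTG, the shorter CACGTG that it contains, and TATAAA. The windows of Ctsd and Abca1 are printed because they held the lysosomal element and CACGTG, and the other members' windows held neither. Shown are the 250 bases before the start, on the gene's own strand, with the matches to GTCACGTG, CACGTG and TATAAA in capitals and the half-site unmarked, for Ctsd from the window chr7:142387778-142388077 (minus strand) and for Abca1 from chr4:53159846-53160145 (minus strand).
Ctsd: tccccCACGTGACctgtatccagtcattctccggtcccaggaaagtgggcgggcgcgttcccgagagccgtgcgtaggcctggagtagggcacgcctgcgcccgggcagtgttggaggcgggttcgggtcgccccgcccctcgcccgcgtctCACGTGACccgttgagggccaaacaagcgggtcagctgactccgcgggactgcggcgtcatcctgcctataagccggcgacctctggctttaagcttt
Abca1: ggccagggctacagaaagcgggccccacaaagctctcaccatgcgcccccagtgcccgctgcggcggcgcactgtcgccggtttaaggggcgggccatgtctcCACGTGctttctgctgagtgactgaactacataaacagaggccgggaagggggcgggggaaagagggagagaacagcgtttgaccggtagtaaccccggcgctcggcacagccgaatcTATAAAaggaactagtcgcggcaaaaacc
The Ctsd window held GTCACGTG at 2 places, read on the opposite strand, at 245 and 98 bases before the start, and the first match overlaps an AGGTCA half-site on that strand. This element was held by 2.25 percent of the 32851 promoters listed, and the half-site by 16.3 percent. Abca1 held CACGTG at 147 bases and TATAAA at 29 bases before the start, motifs found in 7.15 and 13.6 percent of promoters. TATAAA also occurred before 1 of the 3 starts listed for Apoe. The direct repeat, present in 0.0152 percent of promoters, and the sterol element, in 1.24 percent, were matched in none of the 6 genes.

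The single knockouts were compared with Control to ask what targeting of each gene alone was accompanied by. For Nfasc, whole-gene counts did not separate NFKO from Control. In NFKO all 10 genes overlapped Control, with log2 fold changes from -0.09 (Sparc) to 0.14 (Ctsd) and a median of 0.00014. Between libraries of the same number, Sparc was lower in NFKO in 3 of 3 pairs and Ctsd higher in 3 of 3, and with replicates blocked their adjusted p from edgeR was 0.963 and 0.804. With edgeR, 0 of 10 were called beside 0.365 percent of all genes, and 0 of 10 had an unadjusted p under 0.05 beside 7.69 percent. DESeq2 put 0 of 10 under an adjusted p of 0.05 beside 1.72 percent of all genes. The 95% interval was -0.13 to 0.13 for Clu and -0.19 to 0.17 for Apoe.

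In AnkGKO, Ctsd, Abca1 and Clu were above Control in both libraries, at log2 fold changes of 0.31 (standard error 0.076), 0.31 (0.18) and 0.21 (0.067). The remaining 7 genes overlapped Control, among them Sparc at 0.01 and Apod at -0.06. With Xist as a covariate for the unlabelled sex, the value of Abca1 was 0.13. By edgeR 0 of 10 genes were called beside 0.165 percent of all genes, and the lowest adjusted p was 0.229 for Ctsd. The 3 of 10 genes higher in every library stood beside 11.7 percent of all genes, with 2 against 3 libraries. Ctsd and Clu had an unadjusted p under 0.05, beside 5.39 percent of genes. DESeq2 put the same 2 genes under an adjusted p of 0.05 (Ctsd 0.00174, Clu 0.0179), beside 1.1 percent of genes.

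The direct comparison of DKO with NFKO asks what deletion of Ank3 was accompanied by where Nfasc was targeted in both genotypes. Sparc was the only member with an adjusted p under 0.05 in edgeR, at a log2 fold change of 0.43 (standard error 0.083, 95% interval 0.25 to 0.62, adjusted p = 0.0341), which is below the fold-change threshold. Of all genes, 0.889 percent had an adjusted p under 0.05 here and 0.615 percent were also past the fold-change threshold, where 0 of the 10 members stood. The adjusted p of Sparc was 0.112 without DKO replicate 1 and 0.154 without Control replicate 1 and NFKO replicate 1 together. It was 0.0543 with a replicate block and 0.127 with Xist as a covariate, and it was also above 0.05 with only the libraries compared and without any 1 of Control replicates 2 and 3, NFKO replicates 1 and 2 and DKO replicate 3. It stayed under 0.05 in 9 of 19 alternatives, with a range from 2.88e-05 to 0.154. Apoe, Clu and Ctsb were also higher in every DKO library, by 0.29, 0.25 and 0.16 on the log2 scale, and Lcat was lower in every DKO library, at -0.38 (-0.21 without DKO replicate 1). These were 4 of 10 members higher with Sparc and 1 lower, beside 9.32 and 10 percent of all genes. Apod was at 0.46, and at 0.23 without DKO replicate 1. At an unadjusted p under 0.05 stood 6 of 10 members, beside 16.2 percent of all genes. DESeq2 put 5 of 10 under an adjusted p of 0.05 beside 7 percent of genes, namely Sparc, Clu (8.52e-05), Apoe (0.0157), Ctsb (0.0185) and Apod (0.0275). The summed Schwann cell and choroid plexus markers, given below, were also lower in every DKO than in every NFKO library. Their part in these values was not tested.

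Against AnkGKO, DKO was higher in every library for Apod (0.58 on the log2 scale, standard error 0.17), Sparc (0.33) and Ctsb (0.10), and lower for Lcat (-0.40). Clu, Abca1 and Ctsd overlapped, at 0.04, 0.0043 and -0.09. These were 3 of 10 members higher and 1 lower, beside 12.4 and 11.3 percent of all genes with 2 against 3 libraries. With edgeR 0 of 10 were called beside 0.171 percent of genes. DESeq2 put 2 of 10 under an adjusted p of 0.05, Apod (0.0344) and Sparc (0.0405), beside 1.39 percent of genes. Without DKO replicate 1 the value of Apod was 0.34 and that of Lcat -0.23, and without AnkGKO replicate 1 that of Lcat was -0.25. Without AnkGKO replicate 2 the value of Ctsb was 0.052. With Xist as a covariate Lcat was at -0.73 here and at -0.70 against NFKO. Between the single knockouts, Clu (-0.21) and Ctsd (-0.18) were lower in every NFKO than in every AnkGKO library, 2 of 10 members beside 11.8 percent of all genes. There 0 of 10 were called by edgeR beside 0.404 percent of genes, and DESeq2 put 1, Clu, under an adjusted p of 0.05 (0.0111) beside 1.99 percent.

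Whether both deletions together differed from the sum of the single effects was tested as an interaction on the log2 scale. The interaction of Sparc was 0.42 (standard error 0.12, edgeR adjusted p = 0.236) and that of Apod 0.53 (0.23, adjusted p = 0.469). Without DKO replicate 1 that of Apod was 0.29. DESeq2 put 1 of 10 members, Sparc, under an adjusted p of 0.05 (0.0341), beside 2.94 percent of all genes. Ctsd was at -0.23 (0.10, adjusted p = 0.480), its DKO value being below the sum of those of NFKO and AnkGKO. The interaction of Clu was 0.04, with a 95% interval of -0.16 to 0.23. No member was called, beside 0.53 percent of all genes. In the test of any difference among the 4 genotypes, 0 of 10 members reached an adjusted p under 0.05 in edgeR beside 0.723 percent of genes, the lowest being 0.0906 for Sparc and 0.127 for Clu. In DESeq2 the same test put 5 of 10 under 0.05 (Clu, Sparc, Ctsd, Apod and Apoe) beside 6.76 percent of genes.

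Since Clu and Ctsd were similar in AnkGKO and DKO, the mean of these genotypes was set against the mean of Control and NFKO, a comparison added after the values were seen. Clu was at 0.23 (standard error 0.045, 95% interval 0.13 to 0.33, adjusted p = 0.0815 by edgeR), with all 5 Ank3-deleted libraries above all 6 Ank3-intact libraries. It was the 1 member of 10 with such a separation, beside 0.53 percent of all genes. Abca1 was at 0.30, Apoe at 0.23, Sparc at 0.22, Ctsd at 0.20 and Ctsb at 0.10, and their libraries overlapped. Without AnkGKO replicate 1 Apoe was at 0.15, and without DKO replicate 1 Abca1 was at 0.19. No member was called, beside 0.131 percent of genes, whereas DESeq2 put Clu, Ctsd, Apoe and Sparc under an adjusted p of 0.05 beside 2.26 percent of genes. In the matching comparison of Nfasc-targeted with Nfasc-intact genotypes the largest value was 0.31 for Apod (adjusted p = 0.759 by edgeR). Under the alternatives this value ran from 0.20 to 0.39. There 0 of 10 members were called, beside 0.103 percent of genes.

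Markers of several cell types were measured beside these values. The summed level of 8 astrocyte markers was 8194 to 8653 CPM in Control, 7667 to 8878 CPM in NFKO, 10284 and 10850 CPM in AnkGKO and 9104 to 9536 CPM in DKO, with the 5 Ank3-deleted libraries above the 6 Ank3-intact ones. That separation rested on Gfap. The other 7 markers summed to 6252 to 6731 CPM in Control, 6172 to 7341 in NFKO, 7230 and 8317 in AnkGKO and 6488 to 7337 in DKO, so that DKO overlapped Control and NFKO, and AnkGKO overlapped NFKO. Gfap, the intermediate filament of astrocytes, was at 1587 to 2151 CPM in Control, 1398 to 1537 in NFKO, 2532 and 3054 in AnkGKO and 1982 to 3048 in DKO. Of the 8 markers, 7 were at a positive fold change in AnkGKO and 6 in DKO, none was called, and none was at 0 in any library. Slc1a3, a glutamate transporter, was at a negative fold change in both, -0.32 in AnkGKO and -0.40 in DKO (edgeR adjusted p = 0.998 and 0.726). The summed 8 microglia markers were at 203 to 257 CPM in Control, 212 to 238 in NFKO, 247 and 276 in AnkGKO and 205 to 283 in DKO. The summed 7 oligodendrocyte markers ran from 26630 to 32883 CPM and overlapped between all genotypes. The part of these cell types in the values of Clu, Ctsd and the other members was not tested.

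**Figure D4:**
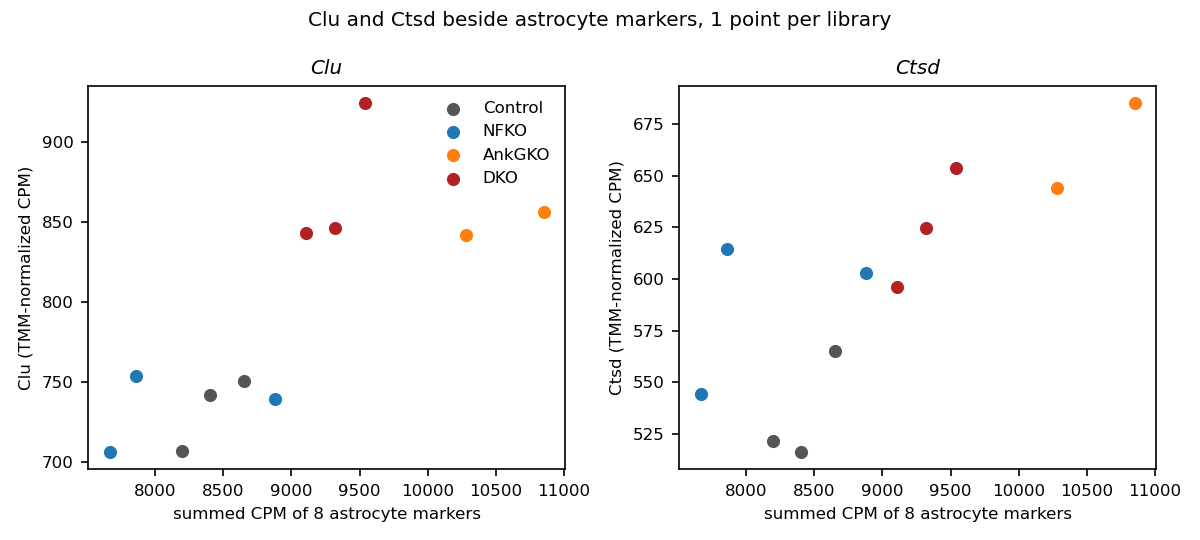
Clu (left) and Ctsd (right) in TMM-normalized CPM against the summed CPM of 8 astrocyte markers, 1 point per library, coloured by genotype. Neither axis starts at 0. The 5 AnkGKO and DKO libraries lie to the right of the 6 Control and NFKO libraries in both panels, a separation that rests on the marker Gfap, and above them for Clu.

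Genes with related roles were read from lists chosen by function. The 12 lipoprotein receptors showed no call in DKO against Control, and 3 of 12 had a positive fold change, with a median of -0.08. The Reelin and Apoe receptor Lrp8 was at 64.9 to 65.2 CPM in DKO against 71.2 to 81.8 CPM in Control, a log2 fold change of -0.24 (edgeR adjusted p = 0.562). Of 16 genes of liver X receptor signalling and sterol handling, 0 were called and 6 were at a positive fold change in DKO, with a median of -0.04. Srebf1, a sterol-regulated transcription factor, was higher in every DKO library (126.2 to 163 CPM) than in Control (113 to 125.6 CPM), at 0.33 against Control (adjusted p = 0.528) and 0.43 against NFKO (adjusted p = 0.0487). The phospholipid transfer protein Pltp was at -0.24 in DKO (adjusted p = 0.639).

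Of 12 other apolipoproteins 10 were tested. Apoa2, a component of plasma high-density lipoprotein on chromosome 1 from 171049125 to 171053948, was called higher in NFKO and AnkGKO than in Control and lower in DKO than in either. It had 17, 22 and 19 reads in NFKO, 31 and 20 in AnkGKO, 0, 1 and 0 in Control and 0 in all 3 DKO libraries. Control and DKO were thus under the floor of 3 reads per library, and no fold is given. Apoc1, an apolipoprotein gene neighbouring Apoe, was at 4.18, 4.04 and 6.13 CPM in DKO against 2.21 to 2.7 CPM in Control, a log2 fold change of 0.95 (edgeR adjusted p = 0.513). Apol6 in NFKO was at -0.88 (adjusted p = 0.404).

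Among 14 other matricellular genes tested, 11 had a positive fold change in DKO with a median of 0.12 and none was called. Spp1 (osteopontin) was at 185 to 198 CPM in DKO against 110 to 153 CPM in Control, at 0.47 (adjusted p = 0.588 by edgeR), and Thbs3, a thrombospondin, at 0.38 (adjusted p = 0.619). Of 19 other lysosomal genes, 16 had a positive fold change in DKO, with a median of 0.14, 14 in AnkGKO and 13 in NFKO, and none was called. Cathepsin H (Ctsh) was at 22.4 to 29.1 CPM in NFKO against 11.7 to 18.1 CPM in Control, at 0.78 (edgeR adjusted p = 0.136).

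**Figure D5:**
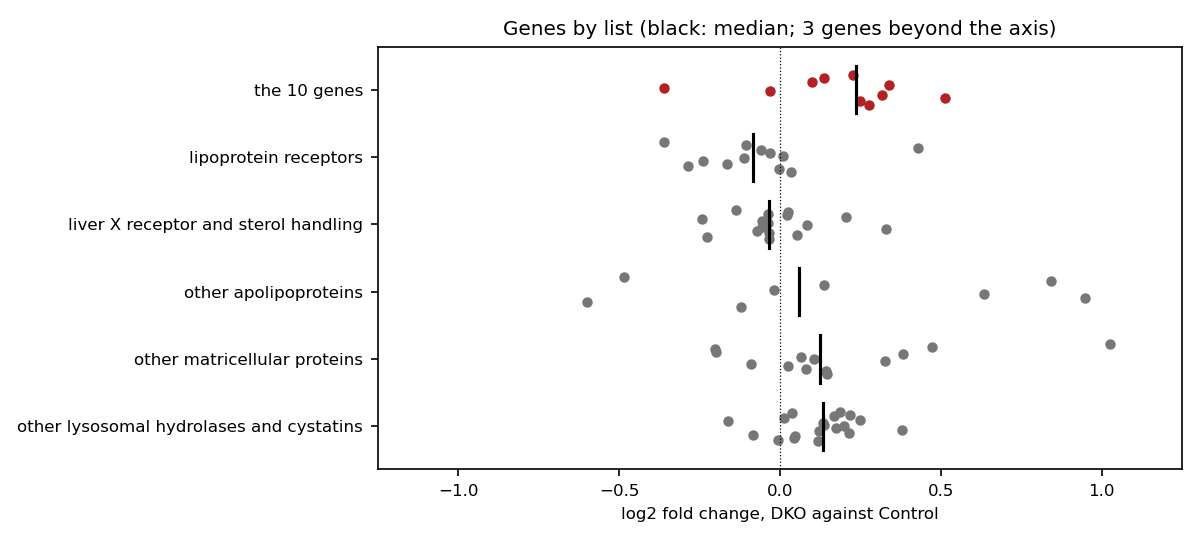
Log2 fold change of DKO against Control for the 10 genes (red) and 5 lists of related genes (grey), 1 point per gene, with a black bar at the median of each list. The vertical spread of points carries no value, and 3 genes lie beyond the axis. The median of the 10 genes is 0.24 and those of the lists run from -0.08 to 0.14.

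The members differed in how much they varied. The biological coefficient of variation of the fit was 6.29 percent for Ctsb, 6.35 for Clu, 6.50 for Sparcl1, 7.01 for Ctsd, 7.35 for Abcg1, 7.90 for Sparc and 8.0 for Apoe, all below the median of 9.12 percent over 10239 genes with a mean of at least 10 CPM. Lcat at 13.2, Apod at 13.5 and Abca1 at 14.5 percent were above it. The highest library exceeded the lowest by 1.98-fold for Apod, 1.93-fold for Lcat and 1.83-fold for Abca1, but by 1.18-fold for Abcg1 and 1.19-fold for Sparcl1. For the former 3 genes DKO replicate 1 was 1 of these extremes.

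For each member, the genes whose log2 CPM followed it most closely over the 11 libraries were sought among 13910 genes with a mean of at least 1 CPM, by Pearson's r and with no test. Clu was followed by Wdr1 (r = 0.947), an actin-disassembly cofactor, and Prdx6 (0.921), an antioxidant enzyme. Apoe was followed by Dmrtc1a (0.945) and Ccs (0.900), and Ctsd by Fgr (0.887) and Carns1 (0.884). Sparc was followed by Phyhd1 (0.960) and Arhgap1 (0.936), Sparcl1 by Mtmr3 (0.958) and Kif2a (0.938), and Ctsb by Maged2 (0.956) and Rnh1 (0.954). Apod was followed by Arih2 (0.970) and Ppp1r3f (0.960), and Lcat by Hnrnph3 (0.965) and 6430527G18Rik (0.964). Abca1 was followed by Gpam (0.930) and Zfp120 (0.907), and Abcg1 by Safb (0.929) and Bak1 (0.908). These values are a description, since the closest genes were picked from 13910 and the 11 libraries share genotypes. None of the genes named here was another member.

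Called genes near the members were also counted, within 2 Mb on either side. No gene was called near Apoe, Clu, Apod, Abca1, Lcat, Ctsb or Ctsd in any comparison. Near Abcg1, Glo1 (1.03) and Ppil1 (-0.73) were called in NFKO against Control, and near Sparc, Lyrm7 (2.22) and Gdf9 (-2.57). In DKO against NFKO, Glo1 (-0.95), Lyrm7 (-1.99) and Gdf9 (2.06) were called, and in NFKO against AnkGKO Glo1 (1.02), Lyrm7 (2.00) and Gdf9 (-2.36). Glo1, Ppil1 and Lyrm7 were called in the interaction. Lyrm7 was called in both pooled comparisons and Gdf9 in the Nfasc-targeted one. Dnahc8, also near Abcg1, was called in DKO against NFKO (-1.47) and in NFKO against AnkGKO (1.43). Near Sparcl1, Gbp8 was called between NFKO and AnkGKO. At most 0.555 percent of the 50-base words of any member's transcripts also occurred in a gene elsewhere in the genome.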

How the data were processed

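Polyadenylated RNA was sequenced from 11 libraries of 4 genotypes, grouped by their sample labels. Per the submitters' processing notes, reads were trimmed with Trimmomatic 0.39 and aligned with STAR 2.7.11a to GRCm39. The authors deposited raw read counts per gene, and a second table of normalized signal, the counts divided by 1 size factor per library (0.815 to 1.16), which was only checked against DESeq2's factors. The 5 summary lines were left out, in which reads not uniquely aligned equalled 32.5 to 34.3 percent and reads without a gene 9.23 to 10.4 percent per library.

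Genes with at least 10 counts were fitted over all 4 genotypes with edgeR 4.0.16 in R 4.3.3 (TMM, robust quasi-likelihood, Benjamini-Hochberg over 17557 genes) and called at an adjusted p under 0.05 with a log2 fold change of 0.6 or more in either direction. Expression is given as TMM-normalized CPM. The steps were tested on simulated data whose changes were larger than those of the members, so that test does not bear on changes of their size. The members, lists and most comparisons were chosen with earlier results of these data known. Named are the 10 members, Nfasc, Ank3, the called genes of each list or otherwise its 2 genes of smallest p against Control, the 2 closest genes of each member, and called neighbours, and 2 genes of these lists that the rule names are not reported here. Marker genes and Lyrm7, Gdf9, Glo1, Ppil1, Dnahc8 and Gbp8 stand beside results only. Alternatives were DESeq2 1.42.0 with a local fit, other size factors and filters, no fold-change threshold, only the libraries compared, Xist as a covariate, the replicate number as a block and leaving out libraries. The astrocyte sum without Gfap and the Ank3 and Nfasc pooled comparisons were added after seeing the data. Control and NFKO libraries of the same number deviated from their group means together (r = 0.567, 0.474 and 0.257 over 13910 genes), and every other pair of genotypes had a number with r of 0.0556 or less. For NFKO and DKO r was 0.0556, 0.454 and 0.273 for numbers 1, 2 and 3. The titles number biological replicates and do not say whether libraries of the same number share a litter or day. Positions came from GENCODE on GRCm39, where 15153 symbols matched directly, 1738 as synonyms and 666 not. Promoter sequences are those of RefSeq on GRCm38.p6.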

Additional observations from a re-analysis of the deposited data

How the results depend on the processing

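Among the 10 genes, 0 were called in each of the 9 comparisons, and this count did not change under the alternatives except in DKO against NFKO, where it was 1 with an adjusted p alone (Sparc) and 0 to 1 without each library in turn (1 without DKO replicate 2, Apod at 0.61 with adjusted p = 0.0443 by edgeR). In the test of any genotype difference, 5 genes passed with DESeq2 and 0 to 1 without each library in turn. The replicate number as a block changed no count of genes called, and with it the adjusted p of Sparc in DKO against NFKO was 0.0543. The cause of these differences was not tested. Of 90 fold changes, 30 changed sign under some alternative, and their main values were all within 0.13 of 0 on the log2 scale. With Xist as a covariate these were Apoe 0.040, Clu 0.056, Apod -0.10 and Abca1 -0.14 in NFKO against Control, Sparc -0.090 and Sparcl1 -0.0085 in AnkGKO against Control, Clu -0.040 in DKO against AnkGKO, Clu -0.096 and Abca1 0.37 in the interaction. Without Control replicate 1 and NFKO replicate 1 together these were Apoe 0.027, Clu 0.011 and Abca1 -0.12 in NFKO against Control, Sparc -0.033 in AnkGKO against Control, Abcg1 0.016 in DKO against Control, Abca1 0.12 in the interaction, Abcg1 0.014 in Ank3-deleted against Ank3-intact, Abca1 -0.056 and Abcg1 0.0019 in Nfasc-targeted against Nfasc-intact. With the replicate block these were Clu 0.00058 in NFKO against Control, Abcg1 -0.0018 in AnkGKO against Control, Abcg1 0.0034 in NFKO against AnkGKO, Abca1 0.026 in the interaction. With only the libraries compared this was Clu 0.0015 in NFKO against Control. With edgeR's expression filter this was Abcg1 -0.0012 in NFKO against Control. Without a filter this was Abcg1 -0.0016 in NFKO against Control. Leaving out each library in turn gave the following ranges for the genes whose sign changed. In NFKO against Control, Apoe from -0.043 to 0.033, Clu from -0.026 to 0.026, Apod from -0.036 to 0.11, Abca1 from -0.14 to 0.15, Abcg1 from -0.027 to 0.048, Lcat from -0.053 to 0.070, Ctsb from -0.058 to 0.017. In AnkGKO against Control, Abcg1 from -0.033 to 0.072, Lcat from -0.11 to 0.17, Sparc from -0.033 to 0.057, Sparcl1 from -0.0092 to 0.058, Ctsb from -0.00030 to 0.080. In DKO against Control, Abcg1 from -0.082 to 0.024. In DKO against NFKO, Abcg1 from -0.080 to 0.023. In DKO against AnkGKO, Apoe from -0.034 to 0.27, Clu from -0.0055 to 0.060, Abca1 from -0.20 to 0.11, Abcg1 from -0.10 to 0.0037. In NFKO against AnkGKO, Abcg1 from -0.072 to 0.030, Lcat from -0.16 to 0.13. In the interaction, Apoe from -0.020 to 0.29, Clu from -0.0028 to 0.063, Abca1 from -0.24 to 0.14, Abcg1 from -0.10 to 0.0035. In Ank3-deleted against Ank3-intact, Abcg1 from -0.035 to 0.022. In Nfasc-targeted against Nfasc-intact, Apoe from -0.024 to 0.13, Clu from -0.0041 to 0.031, Abca1 from -0.082 to 0.075, Abcg1 from -0.052 to 0.0020, Sparcl1 from -0.0019 to 0.046. The other fold changes kept their sign under every alternative run. With 2 or 3 libraries per genotype the 95% intervals against Control ran from -0.13 to 0.13 for Clu in NFKO and from -0.33 to 0.40 for Abca1 in NFKO. Differences within these intervals are not excluded. The intervals are no limits of detection, since Clu at 0.25 in DKO against Control was not called either.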
